A study of Homo sapiens with 20 samples.

Results

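The 10 genes described here belong to the Notch signalling pathway: the ligand genes JAG1 and JAG2, the receptor genes NOTCH1, NOTCH2 and NOTCH3, the nuclear complex genes RBPJ and MAML1, and the target genes HES1, HES4 and NRARP. They were taken by name from the 15531 genes listed in the deposited tables, and each of the 10 was listed at both time points. The group was selected on the measured level of NRARP, which differed strongly between chaetocin and chetomin at 5 h, so NRARP values in the 5 h libraries of these compounds are a description and carry no test.

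RNA-seq was done on HCT116, a human colorectal carcinoma cell line, in 20 libraries that form 10 groups of 2. At 5 h and at 12 h the groups were the solvent vehicle (0.5% DMSO), chaetocin, chetomin and a sulfide-depleted analog of each, labelled MeS-chaetocin and MeS-chetomin, and every compound was given at 500 nM. Chaetocin and chetomin are fungal metabolites of the epidithiodiketopiperazine class, whose members carry disulfide-bridged rings. The 2 libraries of each group are labelled as biological replicates, and all 10 groups share the same cells, medium and library chemistry.

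In Notch signalling a ligand on one cell binds a receptor on its neighbour. The receptor is then cut by an ADAM protease and by gamma-secretase, and its freed intracellular domain enters the nucleus. There it joins the DNA-binding protein RBPJ and a Mastermind coactivator such as MAML1 and turns on target genes, among them the HES and HEY repressors and NRARP, which encodes a small ankyrin-repeat protein that limits the signal by promoting loss of the intracellular domain. In the intestine the pathway is known for keeping progenitor cells and for directing cells away from the secretory fate.

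The promoters of the 3 target genes are shown because these 3 genes rose with chaetocin at 12 h. Each sequence is the 250 bases before the gene's start in RefSeq (GRCh38.p14), written 5′ to 3′ on the gene's strand. Capitals mark matches to the RBPJ core motif TGGGAA, with the preceding GT where the longer GTGGGAA is present, or to the TATA box letters TATAAA.
NRARP, chr9:137302272-137302521, minus strand: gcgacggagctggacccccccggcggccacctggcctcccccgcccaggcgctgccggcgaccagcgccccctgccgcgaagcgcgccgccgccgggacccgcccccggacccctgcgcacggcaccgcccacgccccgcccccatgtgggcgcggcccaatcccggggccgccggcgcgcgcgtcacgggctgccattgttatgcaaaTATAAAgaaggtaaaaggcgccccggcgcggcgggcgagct
HES1, chr3:194135898-194136147, plus strand: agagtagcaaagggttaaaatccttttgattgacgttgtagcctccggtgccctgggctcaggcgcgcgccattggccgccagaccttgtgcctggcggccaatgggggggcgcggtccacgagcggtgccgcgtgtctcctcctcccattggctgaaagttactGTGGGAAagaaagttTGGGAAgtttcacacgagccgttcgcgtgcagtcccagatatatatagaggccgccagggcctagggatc
HES4, chr1:1000098-1000347, minus strand: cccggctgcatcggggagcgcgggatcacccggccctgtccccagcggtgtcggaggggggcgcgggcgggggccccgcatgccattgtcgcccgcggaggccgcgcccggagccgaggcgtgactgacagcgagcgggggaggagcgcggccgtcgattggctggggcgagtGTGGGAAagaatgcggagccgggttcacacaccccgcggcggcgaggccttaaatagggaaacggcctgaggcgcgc
The HES1 window held GTGGGAA at position -85 and a second TGGGAA at -70, and the HES4 window held GTGGGAA at -77, counted from the gene's start. In the NRARP window neither strand held TGGGAA, and TATAAA stood at -41. Of 35116 RefSeq promoter windows of this length, 20.8% held TGGGAA on either strand, 5.43% held GTGGGAA, which contains TGGGAA, and 10.7% held TATAAA. These matches describe the letters only. G and C made up 78.4% of the NRARP window, 59.2% of the HES1 window and 74.8% of the HES4 window.

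Levels are the authors' normalized expression values per library, which appear scaled down by transcript length and sum to between 875371 and 1170802 in a library. In vehicle at 12 h NOTCH2, with 16807 exonic bases, had a mean value of 11.6 and an authors' mean CPM of 113. HES4, with 1118 exonic bases, had 61.9 and 40.4. Differences are log2 differences of group means of log2(value + 1) with their standard error, which understate the change of genes with low values. A gene was called when the Benjamini-Hochberg adjusted p of limma's moderated test, over all genes of the comparison, was under 0.05. Most epithelial markers were high: EPCAM lay between 156 and 371, KRT8 between 1474 and 2848, KRT18 between 815 and 1585 and KRT19 between 436 and 1037 over the libraries, while CDH1 was far lower, from 6.55 to 15.37 at 5 h and from 10.42 to 20.9 at 12 h. The colon markers CDX2 and KRT20 were lower, from 2.40 to 16.98 and from 0.22 to 0.87, and LGR5, CDX1 and VIL1 were not listed. Of the secretory markers, the cell fate that Notch opposes, MUC2 was listed at 12 h alone, at 0 to 0.01 in vehicle and with both analogs, 0.61 to 1.34 with chaetocin and 0.20 to 0.21 with chetomin, while ATOH1, TFF3, SPDEF and CHGA were not listed. In these bulk libraries fewer cells of a type and less RNA per cell cannot be told apart.

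NRARP was the member with the widest range. In vehicle it read 4.93 and 5.30 at 5 h and 4.75 and 5.38 at 12 h. With chaetocin it read 7.53 and 7.91 at 5 h and 45.37 and 39.73 at 12 h. These values put chaetocin just above vehicle at the early time and far above it at the late one, with no overlap at either. With chetomin NRARP read 73.69 and 75.74 at 5 h and 106.00 and 97.49 at 12 h, so both chetomin groups lay above every chaetocin library. The 12 libraries of vehicle and of the analogs lay between 4.22 and 6.60, where most groups overlap, below the 7.53 of the lowest chaetocin library. From high to low the group means were 102 ± 6.02 (SD, n = 2) for chetomin at 12 h, 74.7 ± 1.45 for chetomin at 5 h, 42.6 ± 3.99 for chaetocin at 12 h and 7.72 ± 0.27 for chaetocin at 5 h. The means of the other 6 groups ran from 5.73 ± 1.23 down to 4.55 ± 0.47.

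At 5 h the NRARP mean differed by 3.12 (log2) between chetomin and chaetocin, the difference that chose it, and stood 3.63 ± 0.18 above vehicle with chetomin and 0.51 ± 0.24 with chaetocin. The members were chosen with earlier results of these data known, so the 12 h tests of NRARP may not be independent of that choice. At 12 h NRARP rose by 2.84 ± 0.18 with chaetocin (limma adjusted p = 0.000422) and by 4.08 ± 0.19 with chetomin (adjusted p = 2.1e-05). Both calls held when any 1 of the 4 libraries was left out, with adjusted p up to 0.029 for chaetocin and 0.0212 for chetomin. In the authors' deposited table NRARP had log2 fold changes of 3.45 and 4.66 at 12 h and of 0.85 and 4.14 at 5 h, for chaetocin and chetomin.

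**Figure D1:**
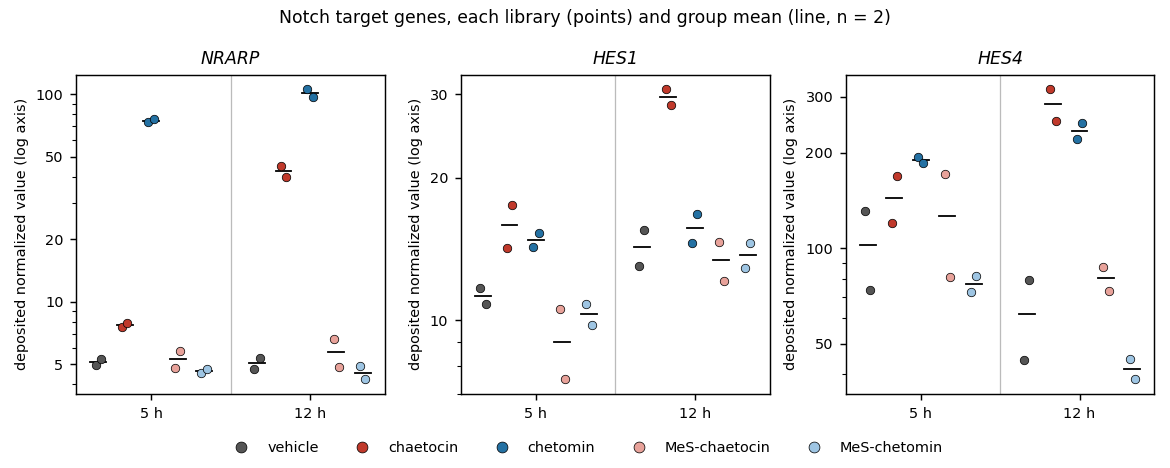
Deposited normalized value (log axis) of NRARP, HES1 and HES4 in each library, by group and time; points are libraries and the line is the mean of 2. NRARP in chetomin lies between 73.69 and 106.00, HES1 stands apart with chaetocin at 12 h (28.50 and 30.76), and HES4 is high with both compounds at 12 h (220.77 to 317.60).

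HES4, a repressor of the HES family, read 131.11 and 73.71 in vehicle at 5 h, a wide spread, and 44.39 and 79.35 at 12 h. With chaetocin it read 119.80 and 168.81 at 5 h and 317.60 and 251.01 at 12 h. With chetomin it read 194.44 and 185.33 at 5 h and 220.77 and 249.01 at 12 h. Its chaetocin libraries overlapped vehicle at 5 h, and in the other 3 of these comparisons both compound libraries lay above both vehicle libraries. HES4 rose at 12 h by 2.23 ± 0.28 with chaetocin (limma adjusted p = 0.00173) and by 1.96 ± 0.26 with chetomin (adjusted p = 0.00123). At 5 h it rose with chetomin by 0.94 ± 0.26 (adjusted p = 0.0446), a call that ended with the spread shared by all libraries of the time (0.117) and a value that was 1.35 without vehicle replicate 1 and 0.53 without vehicle replicate 2. The chetomin call at 5 h ended without either chetomin library, with adjusted p of 0.273 without replicate 1 and 0.212 without replicate 2. HES4 with chaetocin at 5 h stood 0.53 ± 0.30 from vehicle and was not called (adjusted p = 0.304).

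HES1, the best known Notch target repressor of the intestine, read 11.68 and 10.82 in vehicle at 5 h and 13.00 and 15.51 at 12 h. With chaetocin it read 14.19 and 17.51 at 5 h and 30.76 and 28.50 at 12 h. With chetomin it read 14.28 and 15.31 at 5 h and 14.59 and 16.75 at 12 h, where it overlapped vehicle. Only the chaetocin libraries at 12 h stood far from the rest. HES1 rose by 1.01 ± 0.17 with chaetocin at 12 h (limma adjusted p = 0.00501) and was not called with chetomin, at 0.13 ± 0.21 (95% interval -0.36 to 0.62, adjusted p = 0.659). The authors' deposited table gives HES1 with chetomin at 12 h a log2 fold change of 0.47 with a q-value of 0.0361. With chaetocin at 5 h limma did not call HES1 (0.45 ± 0.22, adjusted p = 0.236). The authors' log2 fold change there was 0.75 (q-value 0.0242).

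Among the receptors NOTCH1 went its own way. It read 7.13 and 7.90 in vehicle at 12 h, 17.54 and 14.64 with chaetocin, and 7.08 and 5.11 with chetomin. The MeS-chaetocin libraries at 12 h read 9.75 and 10.08, above both vehicle libraries, a difference of 0.36 ± 0.20 that was not called (limma adjusted p = 0.786). Chaetocin was called higher than this analog (limma adjusted p = 0.017), by 0.52 to 0.76 when any 1 library was left out. NOTCH1 rose by 1.00 ± 0.20 with chaetocin against vehicle (limma adjusted p = 0.0084) and stood at -0.28 ± 0.26 with chetomin (adjusted p = 0.422). At 5 h its vehicle libraries read 3.22 and 4.46, its chaetocin libraries 5.47 and 4.41 and its chetomin libraries 5.99 and 5.24. Limma gave no call with either compound there. The authors' deposited log2 fold changes of NOTCH1 at 5 h were 0.64 (q-value 0.0315) with chaetocin and 0.87 (q-value 0.00229) with chetomin.

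The receptor gene NOTCH2 read 13.74 and 9.48 in vehicle at 12 h, 3.77 and 4.27 with chaetocin and 5.52 and 3.82 with chetomin. NOTCH3, another receptor, read 4.11 and 5.17 in vehicle, 1.37 and 1.66 with chaetocin and 0.93 and 1.22 with chetomin. For both receptors every compound library lay below every vehicle library. At 12 h NOTCH2 fell by 1.31 with chaetocin (SE 0.25, limma adjusted p = 0.00702) and by 1.15 with chetomin (SE 0.28, adjusted p = 0.0163). NOTCH3 fell by 1.16 (SE 0.21, adjusted p = 0.00626) and by 1.44 (SE 0.23, adjusted p = 0.00278). NOTCH2 shares near-identical sequence with its NOTCH2NL copies, so its value is uncertain where the authors' counting split reads among them. At 5 h NOTCH3 was low in vehicle, at 1.00 and 0.96, and its chaetocin libraries read 1.40 and 0.78, on either side of vehicle.

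The ligand gene JAG2 read 42.94 and 53.61 in vehicle at 12 h, 31.78 and 23.41 with chaetocin and 23.08 and 24.25 with chetomin. JAG1, the other Jagged ligand, read 8.58 and 8.38 in vehicle, 5.95 and 5.71 with chaetocin and 3.28 and 3.55 with chetomin. Every compound library lay below vehicle for both ligands, and JAG1 was lower with chetomin than with chaetocin. JAG2 fell by 0.79 with chaetocin (SE 0.20, limma adjusted p = 0.0206) and by 0.99 with chetomin (SE 0.19, adjusted p = 0.00575). JAG1 fell by 1.10 with chetomin (SE 0.24, adjusted p = 0.00991) and stood at -0.47 ± 0.20 with chaetocin, which was not called (adjusted p = 0.0939). In the authors' deposited table JAG1 with chaetocin at 12 h has a log2 fold change of 0.04.

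RBPJ, the DNA-binding subunit that all Notch receptors use, was the one member that limma called with chaetocin at 5 h. It read 19.50 and 19.95 in vehicle, 9.87 and 9.36 with chaetocin and 13.25 and 13.11 with chetomin at 5 h. At 12 h it read 22.15 and 18.91 in vehicle, 8.08 and 8.49 with chaetocin and 13.28 and 11.98 with chetomin. At both times the chaetocin libraries were the lowest and the chetomin libraries stood between them and vehicle, without overlap. RBPJ fell with chaetocin by 0.97 at 5 h (SE 0.20, limma adjusted p = 0.0286) and by 1.21 at 12 h (SE 0.19, adjusted p = 0.00351). With chetomin it fell by 0.66 at 12 h (SE 0.21, adjusted p = 0.039) and stood at -0.55 ± 0.19 at 5 h (adjusted p = 0.0894). The authors' deposited log2 fold change of RBPJ with chetomin at 5 h was -0.72 (q-value 0.000918). The chaetocin call at 5 h ended without either chaetocin library (adjusted p = 0.188 without replicate 1 and 0.237 without replicate 2), on the authors' CPM scale (0.0625), which raises the median of all genes by 0.18 at 5 h and 0.29 at 12 h with chaetocin and by 0.19 and 0.25 with chetomin, and with the replicate number as a block (0.0794). On the CPM scale the 12 h chetomin call of RBPJ also ended (adjusted p = 0.222). This scale multiplies all genes of a group by the same constant and is not the authors' CPM of each gene. The authors' deposited log2 fold changes of RBPJ were -1.06 (q-value 5.24e-07) with chaetocin at 5 h and -0.55 (q-value 0.00309) with chetomin at 12 h.

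MAML1, the Mastermind coactivator, read 18.87 and 15.83 in vehicle at 12 h, 11.64 and 10.06 with chaetocin and 10.24 and 8.24 with chetomin. The compound libraries lay below the vehicle libraries. MAML1 fell by 0.63 with chaetocin (SE 0.19, limma adjusted p = 0.0365) and by 0.84 with chetomin (SE 0.23, adjusted p = 0.0228). Both calls ended on the CPM scale, at adjusted p = 0.258 and 0.1, and the chaetocin call ended with the replicate block (0.0645). The chaetocin call of JAG2 also ended on the CPM scale (0.126). The authors' deposited log2 fold changes of MAML1 at 12 h were -0.48 (q-value 0.00341) with chaetocin and -0.56 (q-value 0.000644) with chetomin. For JAG2 with chaetocin at 12 h the deposited log2 fold change was -0.57 (q-value 0.00153). With chaetocin at 5 h limma did not call MAML1 (-0.83 ± 0.29, adjusted p = 0.118). The authors' deposited log2 fold change there was -0.73 (q-value 0.0113).

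**Figure D2:**
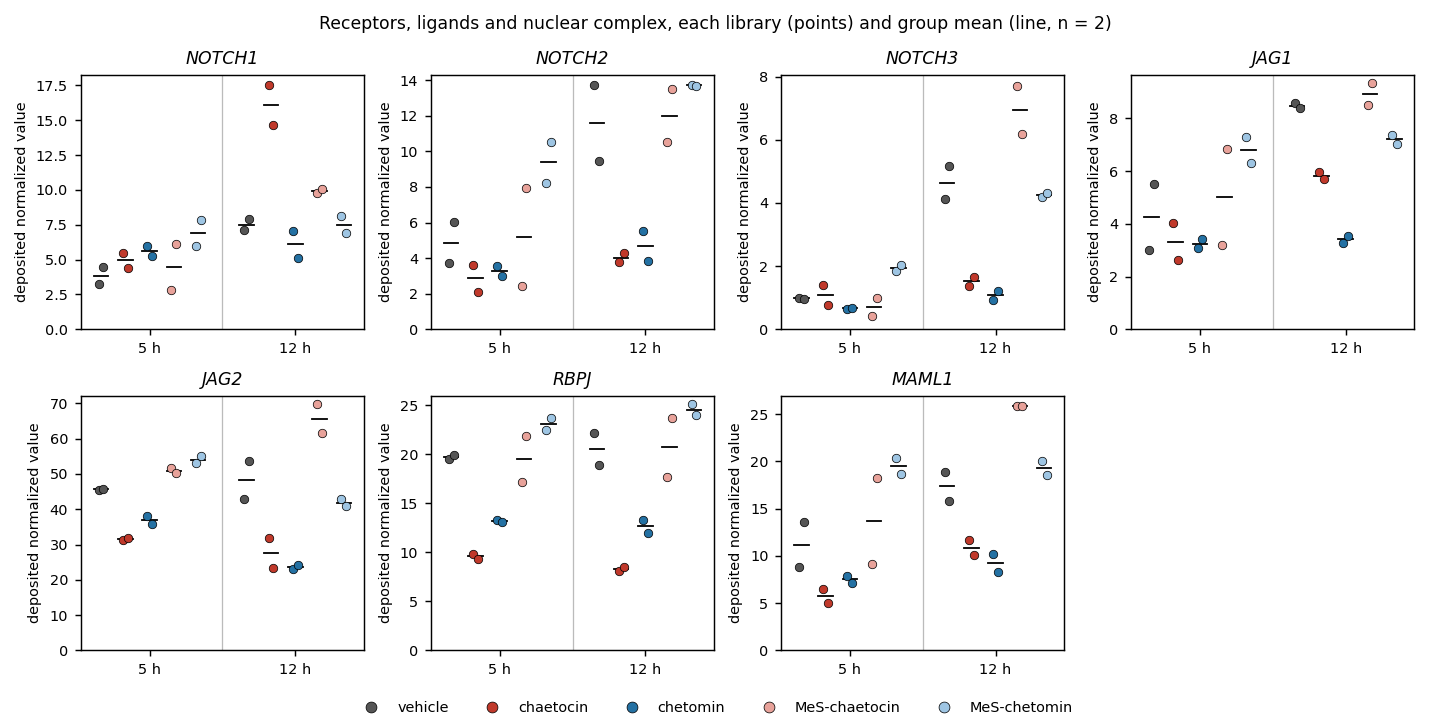
Deposited normalized value of the 7 receptor, ligand and nuclear complex genes in each library, by group and time; points are libraries and the line is the mean of 2. At 12 h NOTCH2, NOTCH3, JAG1, JAG2, RBPJ and MAML1 are lower with both compounds than in vehicle, and NOTCH1 is higher with chaetocin (14.64 and 17.54).

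Counted over the members at 12 h, chaetocin raised 4 of 10 (NRARP, HES4, HES1, NOTCH1) and lowered 5 of 10, against 20.2% and 26.8% of all 15377 genes tested. Chetomin raised 2 of 10 (NRARP and HES4) and lowered 6 of 10, against 15.6% and 20.2% of 15381 genes. On the authors' CPM scale chaetocin raised 4 and lowered 3 members, where 28.3% and 14% of all genes were called, and chetomin raised 2 and lowered 4, where 22.8% and 9.09% were called. The median difference of the members was -0.55 with chaetocin and -0.75 with chetomin, beside -0.16 and -0.15 for all genes. At 5 h, with NRARP left untested, chaetocin lowered 1 of 9 members, RBPJ, against 6.53% of all genes, and chetomin raised 1 of 9, HES4, against 7.02%. Leaving out chaetocin replicate 1 or 2 at 12 h left 1 member called, NRARP, and leaving out chetomin replicate 1 or 2 likewise left NRARP. The calls over all genes fell with them, from 7230 to 1633 and 1638 for chaetocin and from 5503 to 882 and 987 for chetomin. Without vehicle replicate 1 the chetomin comparison at 12 h called fewer members, and fewer of all genes.

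**Figure D3:**
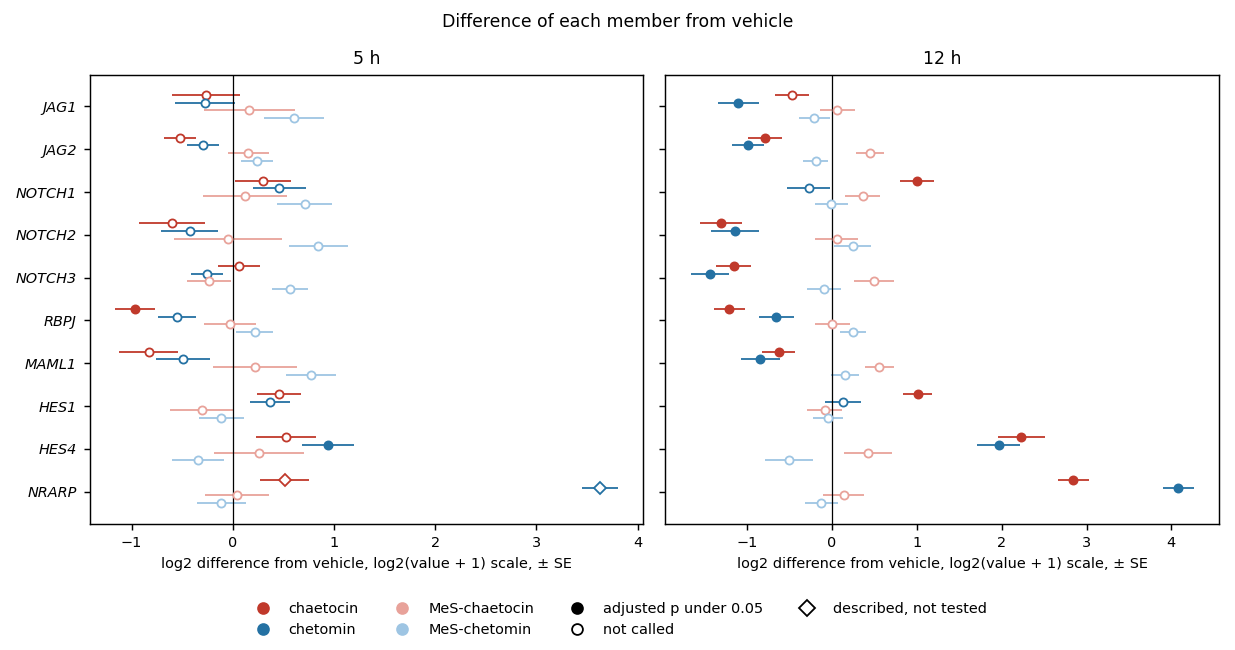
Log2 difference of each member from vehicle, on the log2(value + 1) scale with its standard error, for 4 compounds at 5 h and 12 h. Filled points passed an adjusted p of 0.05, open points did not, and the open diamonds are the NRARP values at 5 h that were described without a test (0.51 and 3.63).

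No member was called with either analog. NRARP read 4.81 and 5.82 with MeS-chaetocin and 4.55 and 4.76 with MeS-chetomin at 5 h, and 6.60 and 4.86 with MeS-chaetocin and 4.88 and 4.22 with MeS-chetomin at 12 h. These lie in or next to the vehicle range. Its difference from vehicle was 0.04 ± 0.32 (95% interval -0.74 to 0.82) and -0.11 ± 0.24 (-0.67 to 0.44) at 5 h. At 12 h it was 0.14 ± 0.24 (-0.46 to 0.74) and -0.13 ± 0.20 (-0.62 to 0.37), for MeS-chaetocin and MeS-chetomin. By limma with adjustment over all genes, 0 of 10 members were called in each of these 4 comparisons. For MeS-chaetocin 0% of all genes were called at 5 h and 0% at 12 h, and for MeS-chetomin 0.141% at 5 h and 0% at 12 h. At an unadjusted p under 0.05 the members counted were 0 at 5 h and 2 at 12 h for MeS-chaetocin, and 4 at 5 h and 0 at 12 h for MeS-chetomin. The share of all genes under that unadjusted p was 0.741% and 4.97% for MeS-chaetocin and 16.1% and 2.74% for MeS-chetomin, at 5 h and 12 h. The 4 were NOTCH1, NOTCH2, NOTCH3 and MAML1, with differences of 0.71, 0.85, 0.57 and 0.77, and the 2 were JAG2 and MAML1, with 0.44 and 0.56.

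Set directly against its analog at the same dose and time, the intact compounds gave the following at 12 h; 3 pairs of compounds were compared at 12 h and 2 at 5 h, with p adjusted over all genes in each. Against MeS-chaetocin, chaetocin was higher for 4 of 10 members and lower for 6 of 10, where 22.2% and 31.6% of all genes were called. NRARP differed by 2.70 ± 0.19 (limma adjusted p = 0.000113), and JAG1, not called against vehicle, by -0.54 ± 0.17 (adjusted p = 0.0319). The JAG1 call ended on the CPM scale (0.269) and with the replicate block (0.0749). Against MeS-chetomin, chetomin was higher for 2 of 10 and lower for 6 of 10, where 18.8% and 28.6% of all genes were called. NRARP differed there by 4.21 ± 0.16 (adjusted p = 1.47e-05), and NOTCH1 and HES1 did not pass, at -0.27 (95% interval -0.77 to 0.23) and 0.18 (-0.23 to 0.58). The JAG2 call against MeS-chetomin ended on the CPM scale (0.0587), where HES1 was called (0.0355). The split became 3 higher and 5 lower there, beside 30.4% and 12.1% of all genes. Without chetomin replicate 2 fewer members were called, and fewer of all genes. The vehicle libraries entered these fits for the spread alone, so the contrasts with vehicle and with the analog share the compound libraries.

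At 5 h the pairs with the analogs read differently. Chetomin was higher than MeS-chetomin for 1 of 9 members, HES4 at 1.29 ± 0.24 (limma adjusted p = 0.00606), and lower for 6 of 9, where 8.97% and 23.9% of all genes were called. The 6 were MAML1 and NOTCH2, both at -1.27, JAG1 at -0.88, NOTCH3 at -0.82, RBPJ at -0.76 and JAG2 at -0.53. Without any 1 chetomin or MeS-chetomin library this count of 7 fell, and the calls over all genes fell with it. On the CPM scale JAG1, JAG2 and RBPJ lost their calls (adjusted p = 0.131, 0.317 and 0.0641). HES1 was called on that scale (0.0107), which left 2 higher and 3 lower, beside 21.3% and 11.2% of all genes. MeS-chetomin itself was high for these genes at 5 h: MAML1 read 20.31 and 18.66 against 8.85 and 13.54 in vehicle, and NOTCH2 read 8.25 and 10.54 against 3.71 and 6.02. Between chaetocin and MeS-chaetocin at 5 h limma called 0 of 9 members, where 6.56% of all genes were called, and 4 passed an unadjusted p of 0.05, as did 22.6% of all genes. The closest were RBPJ at -0.94 ± 0.21 (adjusted p = 0.051) and JAG2 at -0.67 ± 0.15 (adjusted p = 0.0528). NRARP, described without a test, stood 0.47 above MeS-chaetocin with chaetocin and 3.74 above MeS-chetomin with chetomin at 5 h.

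Chaetocin and chetomin, both with disulfide-bridged rings, were compared directly at 12 h. Chaetocin was higher for 2 of 10 members and lower for 1 of 10, where 3.4% and 1.27% of all genes were called. NRARP was lower with chaetocin (log2 difference -1.24 ± 0.15, limma adjusted p = 0.00412). NOTCH1 was higher with chaetocin by 1.28 ± 0.21 (adjusted p = 0.0154) and HES1 by 0.88 ± 0.17 (adjusted p = 0.0247). For HES4 the difference was 0.27 (95% interval -0.29 to 0.82), for JAG1 0.63 (0.18 to 1.08, adjusted p = 0.108) and for RBPJ -0.55 (-0.95 to -0.15, adjusted p = 0.116), none of them called. The NRARP call ended without chaetocin replicate 2 (adjusted p = 0.0529), chetomin replicate 1 (0.0759) or chetomin replicate 2 (0.0725) and held without chaetocin replicate 1 (0.0351), while its difference stayed between -1.33 and -1.15. The calls of NOTCH1 and HES1 ended without any 1 of the 4 compound libraries, with adjusted p up to 0.154 and 0.205. At 5 h the members are given side by side without a test. The chetomin minus chaetocin difference was 0.42 for RBPJ, 0.41 for HES4, 0.34 for MAML1 and -0.32 for NOTCH3, and lay between -0.09 and 0.23 for the other 5 members beside NRARP.

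The change between times was tested as the interaction of compound and time. With chaetocin, NOTCH3 had a 12 h effect below its 5 h effect (log2 difference -1.22 ± 0.30, limma adjusted p = 0.0484), the one of 9 members called, where 0.895% of genes were called in that direction. This call ended with a pseudocount of 0.1 (0.125), on the CPM scale (0.0708), with the replicate block (0.0799) and without each of the 8 libraries in turn (0.0517 to 0.179). NOTCH3 in vehicle itself differed between the times, at 1.00 and 0.96 against 4.11 and 5.17. HES4 had a 12 h effect of chaetocin higher by 1.70 ± 0.45 (adjusted p = 0.0659), which was called with the replicate block (0.0334) and on the CPM scale (0.0452). With chetomin limma called 0 of 9 members, where 0.497% of genes were called, and 4 passed an unadjusted p of 0.05, as did 20.5% of genes. The difference between the 12 h and the 5 h effect on NRARP, described without a test, was 2.33 for chaetocin and 0.45 for chetomin.

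Of the 58 other genes on the Notch lists, 50 were listed at each time. The list was drawn up with earlier results of these data known. Of the 50, chaetocin raised 1 and lowered 5 at 5 h, against 4.56% and 6.53% of all genes, and raised 3 and lowered 19 at 12 h, against 20.2% and 26.8%. Chetomin raised 3 and lowered 5 at 5 h, against 7.02% and 8.71%, and raised 4 and lowered 14 at 12 h, against 15.6% and 20.2%. On the CPM scale the 12 h split was 9 raised and 12 lowered with chaetocin and 6 raised and 9 lowered with chetomin, where all genes gave the shares named above for that scale. At 5 h on that scale chaetocin raised 1 and lowered 2, against 6.17% and 3.55% of all genes. Chetomin raised 4 and lowered 3 there, against 9.85% and 4.59%. Their median difference at 12 h was -0.41 with chaetocin and -0.44 with chetomin. By limma as fitted here neither analog gave a call among the 50 at either time, with 0 and 2 genes (MeS-chaetocin) and 16 and 1 genes (MeS-chetomin) under an unadjusted p of 0.05 at 5 h and 12 h. For MeS-chetomin at 5 h the replicate block gave 8 raised and 1 lowered, where 6.28% and 1.82% of all genes were called, and leaving out vehicle replicate 2 gave 4 raised, where 5.34% of all genes were called higher. Leaving out a chaetocin or a chetomin library, which leaves a lone library in its group, ended most of these calls at both times. Most calls over all genes ended there too.

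Among the targets, HEY1, a repressor of the HES-related HEY family, rose with both compounds at both times. HEY1 read 0.32 to 0.39 in vehicle, 1.3 to 1.34 with chaetocin and 3.51 to 4.18 with chetomin at 5 h. At 12 h it read 0.73 to 0.76 in vehicle, 4.24 to 4.97 with chaetocin and 5.46 to 6.38 with chetomin, and no analog library passed 0.95. The compound and vehicle libraries did not overlap at either time. HEY1 rose by 0.78 ± 0.16 with chaetocin (limma adjusted p = 0.0265) and by 1.84 ± 0.20 with chetomin (adjusted p = 0.00166) at 5 h, and by 1.68 ± 0.19 (0.00122) and 1.98 ± 0.22 (0.000584) at 12 h. Both 12 h calls and the chetomin call at 5 h held without any 1 library, with adjusted p up to 0.0311. The chaetocin call at 5 h held without 2 of 4 libraries, with adjusted p up to 0.0655. HEYL, a second member of that family, went down in the same 4 comparisons. It read 2.87 to 3.18 in vehicle, 0.42 to 0.52 with chaetocin and 0.84 to 1.11 with chetomin at 5 h, and 4.94 to 4.96, 1.00 to 1.07 and 2.05 to 2.07 at 12 h. HEYL fell by 1.45 and 1.03 at 5 h and by 1.55 and 0.96 at 12 h, for chaetocin and chetomin, with adjusted p from 0.0016 to 0.017. HES2 fell by 1.05 with chaetocin at 12 h (adjusted p = 0.0181).

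Among the ligands DLL1, a Delta-like ligand, rose at 12 h by 1.47 ± 0.21 with chaetocin (limma adjusted p = 0.00281) and by 1.76 ± 0.24 with chetomin (adjusted p = 0.00156). It read 2.30 to 2.67 in vehicle, 8.30 to 9.02 with chaetocin and 10.48 to 11.13 with chetomin, opposite in direction to the Jagged ligand JAG2. DLK2 fell with chaetocin at 12 h by 1.08 and with chetomin at 5 h by 0.96, at low levels. It read 1.09 to 2.53 in vehicle and 0.08 to 0.52 with chaetocin at 12 h. At 5 h DLK2 read 1.73 to 2.13 in vehicle, 0.36 to 0.65 with chetomin and 0.80 to 0.99 with MeS-chetomin, so this analog also lay below vehicle. Of the 9 receptor cleavage genes, 4 fell with chaetocin and 3 with chetomin at 12 h, where 26.8% and 20.2% of all genes fell, and ADAM10, the protease that makes the first cut after ligand binding, fell most. ADAM10 read 76.60 and 99.21 in vehicle, 26.25 and 28.32 with chaetocin and 31.79 and 35.68 with chetomin, and fell by 1.64 and 1.35 (SE 0.17 and 0.19, adjusted p = 0.00103 and 0.00162). FURIN, which cuts the receptor on its way to the surface, fell by 0.64 and 1.18, and APH1A, a gamma-secretase subunit, by 0.57 and 0.52. PSEN2, a catalytic subunit of gamma-secretase, fell by 0.92 with chaetocin. On the CPM scale the calls of APH1A ended with both compounds (0.231 and 0.348), and so did those of FURIN (0.212) and PSEN2 (0.102) with chaetocin.

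Of the 5 receptor glycosylation genes, 3 fell with chaetocin and 4 with chetomin at 12 h, where 26.8% and 20.2% of all genes fell, and none rose. POFUT1, which adds fucose to Notch receptors, fell by 1.41 and 0.96, LFNG, a Fringe enzyme that extends this sugar, by 1.22 and 1.27, and POGLUT1, which adds glucose, by 1.06 and 0.85, for chaetocin and chetomin (limma adjusted p from 0.0021 to 0.0257). RFNG, another Fringe, fell by 0.94 with chetomin, and was the one gene of the 50 that differed between the compounds at 12 h, higher with chaetocin by 0.76 ± 0.17 (adjusted p = 0.0443). This RFNG call ended with a pseudocount of 0.1 and with the replicate block, which left 0 genes called, and without any 1 of the 4 compound libraries (adjusted p = 0.197 to 0.273). Against vehicle with chetomin, the calls of RFNG (0.0523) and POGLUT1 (0.0887) ended on the CPM scale.

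Of the 11 corepressor genes, chaetocin lowered 6 and raised 1 and chetomin lowered 4 and raised 1 at 12 h, where 26.8% and 20.2% of all genes were lowered and 20.2% and 15.6% raised. CTBP1 fell by 1.21 and 1.16, TLE1 by 1.10 and 1.03 and TLE3 by 0.99 and 1.05 (limma adjusted p from 0.0047 to 0.0182). These genes encode corepressors that RBPJ or HES proteins recruit. TLE3 had fallen with chaetocin at 5 h by 1.71 ± 0.28 (adjusted p = 0.0149). At 12 h TLE3 read 24.17 to 27.76 in vehicle, 9.85 to 14.57 with chetomin and 13.92 to 17.20 with MeS-chetomin. This analog thus lay below vehicle and overlapped chetomin, and chetomin differed from it by -0.34, which was not called. Of the 7 other nuclear complex genes 1 was called at 12 h: CDK8, a Mediator kinase, fell with chaetocin by 0.83, after falls at 5 h of 1.10 with chaetocin and 0.82 with chetomin. SNW1, a coactivator bound to the receptor's intracellular domain, fell with chaetocin at 5 h by 0.72. Among the 10 turnover genes DTX4, of the Deltex ubiquitin ligase family, fell by 1.08 and 1.12 at 12 h, and its relative DTX2 fell by 1.12 with chaetocin at 5 h. FBXW7, which marks the intracellular domain for destruction, fell by 1.11 with chetomin at 5 h, and NEURL1, a ubiquitin ligase for ligands, rose by 0.99 with chetomin at 12 h. NEURL1 read 0.26 to 0.68 in vehicle, 1.72 to 2.08 with chetomin and 0.53 to 1.68 with MeS-chetomin at 12 h. On the CPM scale the calls ended for CDK8 in all 3 comparisons (0.054, 0.111 and 0.09), for DTX2 (0.0859), SNW1 (0.108) and FBXW7 (0.0553), and at 12 h for TLE3 with chaetocin (0.0752). With the replicate block the 5 h chaetocin calls of SNW1 (0.111) and CDK8 (0.0544) ended too.

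**Figure D4:**
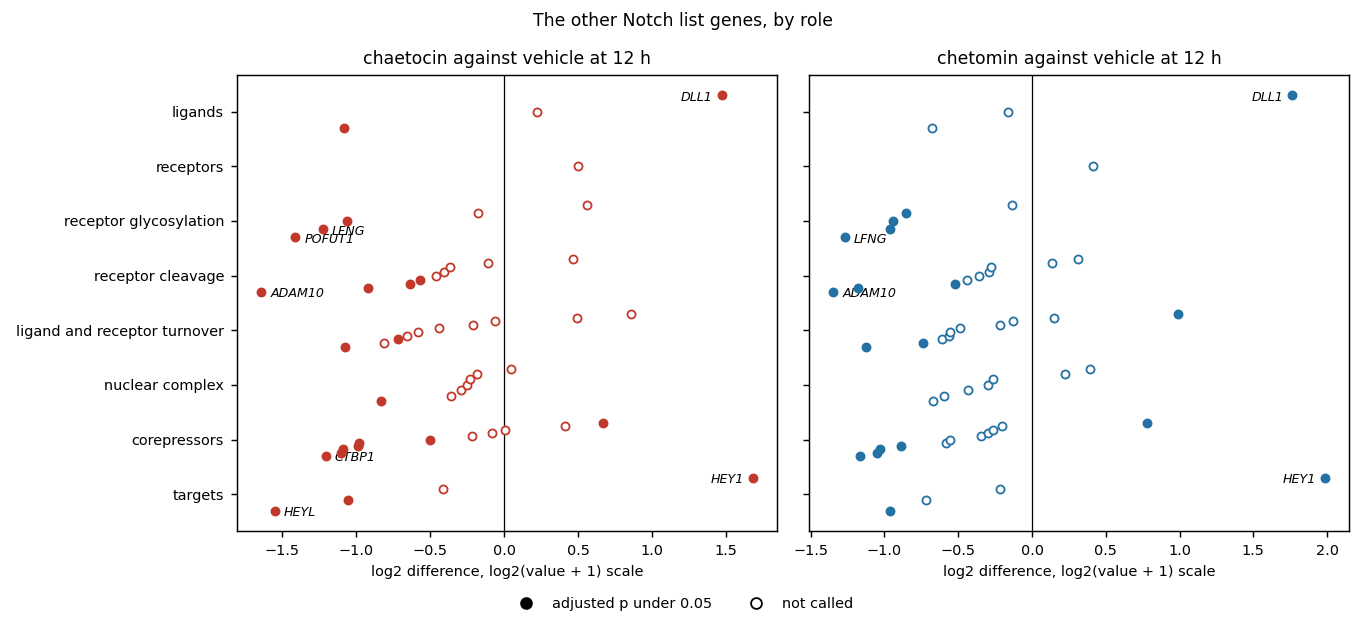
Log2 difference from vehicle at 12 h of the 50 other Notch genes, on the log2(value + 1) scale, in rows by role, for chaetocin and chetomin. Filled points passed an adjusted p of 0.05, and names mark called genes beyond 1.2 in size, with HEY1 and DLL1 high and ADAM10 low in both.

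Over the 10 group means of log2(value + 1), the genes most like NRARP among 9067 with a mean value of at least 5 were DNAJB9 (Pearson r = 0.985), ARC (0.978), ZNF596 (0.976), TRIB3 (0.972) and TFPT (0.969). DNAJB9, an endoplasmic reticulum chaperone gene, had means of 5.36, 11.29 and 40.1 in vehicle, chaetocin and chetomin at 5 h, and of 6.48, 41.2 and 67.7 at 12 h. ARC, an immediate early gene, had means of 4.26, 4.98 and 75.4 at 5 h and of 5.79, 103 and 171 at 12 h. TRIB3, a stress-induced pseudokinase gene, had means of 45.3, 34.8 and 222 at 5 h and of 30.4, 152 and 289 at 12 h. ZNF596 had means of 1.205, 5.45 and 21.0 at 5 h and of 1.835, 19.5 and 41.1 at 12 h. TFPT had means of 10.4, 12.2 and 28.6 at 5 h and of 7.475, 27.6 and 51.2 at 12 h. All 5 had chetomin highest at 5 h, and the order vehicle, chaetocin, chetomin at 12 h. They were picked for likeness to NRARP over these same means, so the shared order comes with the choice. Of the members, HES4 was closest to NRARP at r = 0.829, then HES1 at 0.572 and NOTCH1 at 0.212, and the other 6 ran from -0.46 for NOTCH3 to -0.77 for JAG2. The 10 points share the authors' normalization and 2 of them are the groups that chose NRARP, so these are descriptions.

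The members that fell are long and those that rose most are short. NRARP has 1770 exonic bases, HES4 1118 and HES1 2062 in GENCODE 29, and JAG2, RBPJ, JAG1, NOTCH3 and NOTCH2 have from 6397 to 16807, MAML1 5942 and NOTCH1, which rose with chaetocin, 10377. Over all genes with a mean value of at least 5, genes of at least 6000 exonic bases had a median difference at 12 h of -0.46 with chaetocin and -0.44 with chetomin, and 40.9% and 31.8% of them were called lower. Genes under 2000 bases had medians of 0.00 and 0.15, and 17.5% and 10.9% were called lower. Between chetomin and MeS-chetomin at 5 h the medians were -0.47 for long and 0.22 for short genes. Long minus short genes, as a median log2 deviation, ranged in a library from -0.60 (MeS-chaetocin replicate 1 at 5 h) to 0.58 (MeS-chetomin replicate 2 at 5 h). The vehicle at 5 h split into -0.39 and 0.28, and at 12 h vehicle stood at 0.35 and 0.02 and the 4 intact-compound libraries between -0.56 and -0.26. The part of transcript length in the members' differences was not tested. Vehicle replicate 1 at 5 h also had 20.29% of its summed value in 10 genes, against 9.42% to 17.29% in the other libraries. Without that library, chaetocin at 5 h called 3 of 9 members, where 15.6% of all genes were called, and chetomin 2 of 9, where 24.2% were.

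**Figure D5:**
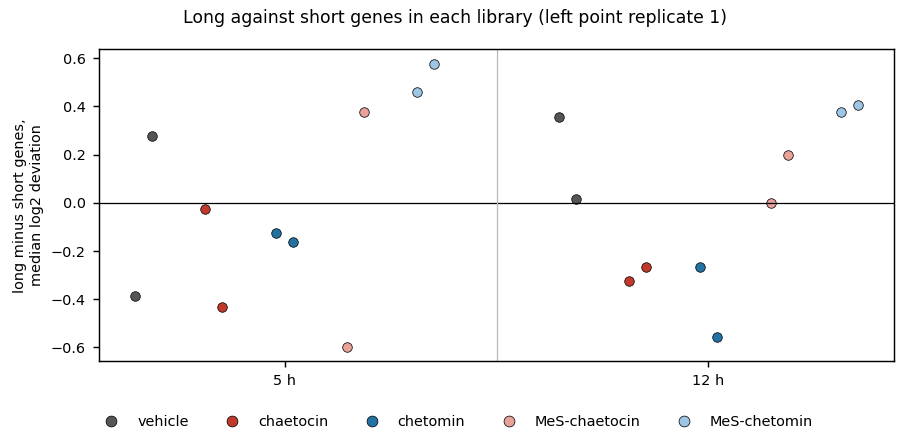
Median log2 deviation of long genes (at least 6000 exonic bases) minus short genes (under 2000) in each library, by group and time, with replicate 1 at the left of each pair. Vehicle at 5 h (-0.39 and 0.28) and MeS-chaetocin at 5 h (-0.60 and 0.38) split between their replicates, and both compounds at 12 h lie below vehicle.

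Some markers of other cell types moved with the compounds at low levels. Of the 4 endothelial markers all were listed at 12 h, and their summed level was 0.08 to 0.15 in vehicle, 4.82 to 4.96 with chaetocin, 2.27 to 2.61 with chetomin and at most 0.23 with the analogs. At 5 h 1 of the 4, KDR, was listed, at 0.01 to 0.03 in vehicle, 0.22 to 0.25 with chaetocin and 0.20 to 0.53 with chetomin. Of the 3 hepatocyte markers ALB alone was listed, at 0 in both vehicle libraries at 12 h, 3.20 to 4.31 with chaetocin and 4.87 to 5.13 with chetomin. Of the 5 leukocyte markers CD68 alone was listed, at 1.44 to 1.46 in vehicle, 5.88 to 9.62 with chaetocin and 3.4 to 4.82 with chetomin at 12 h, and PTPRC was not listed. At 5 h CD68 read 0.2 to 0.72 in vehicle, 2.61 to 5.36 with chaetocin and 3.03 to 3.51 with chetomin. The analogs overlapped both compounds at 5 h, at 0.49 to 3.46 with MeS-chaetocin and 1.55 to 3.45 with MeS-chetomin. Of the 5 fibroblast markers COL1A1 alone was listed, at 5.36 to 9.06 in vehicle, 4.04 to 4.64 with chaetocin and 4.24 to 6.18 with chetomin at 12 h. The epithelial sum with both compounds overlapped vehicle at 12 h: 3340 to 4388 in vehicle, 4079 to 4409 with chaetocin and 4267 to 4362 with chetomin. It was 4177 to 4342 with MeS-chaetocin and 3257 to 3431 with MeS-chetomin, the latter below both compounds. At 5 h this sum was 4197 to 4789 in vehicle, 4672 to 5179 with chaetocin and 5440 to 5487 with chetomin. With MeS-chaetocin and MeS-chetomin it was 3887 to 4991 and 4060 to 4337 at 5 h, so chetomin was highest. The part of these marker levels in the members' results was not tested.

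In GENCODE 29 (GRCh38) NRARP, identifier ENSG00000198435, lies on chromosome 9 from 137300482 to 137302251 on the minus strand, and NOTCH1 lies on the same chromosome and strand from 136494433 to 136545786. HES4 lies on chromosome 1 from 998962 to 1000172 on the minus strand, and NOTCH2 on chromosome 1 from 119911553 to 120069626. HES1 lies on chromosome 3 from 194136145 to 194138732, RBPJ on chromosome 4 from 26163455 to 26435131 and MAML1 on chromosome 5 from 179732850 to 179777286, these 3 on the plus strand. JAG2 lies on chromosome 14 from 105140981 to 105168824, NOTCH3 on chromosome 19 from 15159038 to 15200981 and JAG1 on chromosome 20 from 10637684 to 10673999, these 3 on the minus strand. All 10 are protein-coding genes, and the values are for whole genes.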

How the data were processed

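Poly(A) RNA from HCT116 cells was sequenced as directional libraries, per the labels' protocols. The submitters' processing notes name STAR 2.5.2b, RSEM 1.3.3, edgeR and build GRCh38. Settings, gene models and counting strand were not given in the sources used here. Each table as deposited holds 1 normalized expression signal per library, whose normalization is not named in the headers: it appears scaled down by transcript length and is neither counts nor TPM. The authors also deposited mean CPM per group (a normalized signal), a log2 fold change and a p-value with its adjusted q-value for each compound against vehicle, per the file headers.

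From the signal, log2(value + 1) was fitted with limma 3.58.1 (R 4.3.3) with a variance trend, on all listed genes, with Benjamini-Hochberg adjustment over them and a threshold of 0.05, two-sided. Fits held 4 libraries against vehicle, 6 for direct pairs and 8 for compound by time, in 15 comparisons. Exact permutation of 2 against 2 libraries cannot give a two-sided p below 0.333, so the model across genes was used. With 2 libraries per group, and nothing beyond the biological replicate labels on how cultures were separated, p-values measure the spread between these libraries. NRARP was left untested wherever its 5 h chaetocin or chetomin libraries enter, since those chose it.

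The members and gene lists were chosen with earlier results of these data known. All 10 members are named, and of the other Notch genes those called against vehicle in 1 comparison or more, at most 4 per role by size. Of these, 1 gene is not reported here. The length classes (6000 and 2000 bases) and the crossed replicate numbers were chosen after seeing the data. The other alternatives were a pseudocount of 0.1, a mean value of at least 1, the authors' CPM scale, the replicate number as a block, a spread shared by all libraries of a time, and each library left out in turn. For the CPM scale the signal of all genes in a group was multiplied by the same constant. It was the median over genes of the group's ratio of mean CPM to mean signal, relative to vehicle. In log2 it was 0.229 and 0.237 at 5 h and 0.36 and 0.323 at 12 h for chaetocin and chetomin. The authors' CPM of each gene did not enter these fits. With a lone library left in a group, it was assumed to vary like the other group. The smallest step in the mean CPM gave 64.94 to 80 M effective reads per group in the vehicle and analog groups. It could not be read in the 4 intact-compound groups, so depth is unknown there. The scripts were tested on simulated data. Promoter sequences are from RefSeq (GRCh38.p14), where all 10 members matched.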

Additional observations from a re-analysis of the deposited data

Results flagged for a closer look

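2 genes described here had effects that differed between 5 h and 12 h by the test of compound and time (limma, adjusted over all genes). With chaetocin 1 of 9 members and 1 of 50 other Notch genes were called lower in this test, where 0.895% of 14072 genes were. NOTCH3 had a 12 h effect of chaetocin lower than its 5 h effect, at -1.22 (SE 0.30, adjusted p = 0.0484), a call that ended without any 1 of the 8 libraries. ADAM10 with chaetocin differed by -1.88 (SE 0.42, adjusted p = 0.0361), and the call ended with a pseudocount of 0.1 (0.0551) and held without 2 of 8 libraries, with adjusted p up to 0.123. Its vehicle libraries at 5 h stood far apart, at 24.97 and 49.42.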

How the results depend on the processing

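No called result of the 10 members or the named Notch genes reversed. NOTCH1 with chetomin, not called, changed sign on the CPM scale (0.01 against vehicle and 0.08 against MeS-chetomin at 12 h, 0.07 against MeS-chetomin at 5 h), and uncalled values of other named genes did so in 32 cases over the settings that keep all libraries. The number of members called moved past 1.5-fold as follows. For chaetocin at 5 h it was 1, and 0 on the authors' CPM scale, 2 with the shared spread and 0 to 3 without 1 library. For chetomin at 5 h it was 1, and 0 to 2 without 1 library, and for MeS-chetomin at 5 h 0, and 0 to 2. At 12 h it was 9 for chaetocin and 8 for chetomin, and 1 to 9 and 1 to 8 without 1 library. For chaetocin against chetomin at 12 h it was 3, and 0 to 3, for chetomin against MeS-chetomin 8, and 5 to 8 at 12 h, and 7, and 1 to 8 at 5 h. For chaetocin against MeS-chaetocin at 5 h it was 0, and 1 with a pseudocount of 0.1 and 3 with the shared spread. For the chaetocin interaction it was 1, and 0 with a pseudocount of 0.1, 0 with the mean filter and 0 to 1 without 1 library. The number of all genes called also moved in these settings. The cause was not tested.

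Replicate numbers are shared across groups but do not pair the libraries: same-numbered deviations correlated with vehicle from -0.489 to 0.685 at 5 h and from -0.336 to 0.0831 at 12 h. With the replicate number as a block the counts were 0 for chaetocin at 5 h, 2 for MeS-chetomin at 5 h, 2 for the chetomin interaction and 8 for chaetocin at 12 h. Calls over all genes there were, in the same order, 1511 of 14217, 1149 of 14184, 709 of 14072 and 7056 of 15377. With crossed numbers, tried after seeing the data, the chaetocin count was 6 at 5 h and 9 at 12 h. Over all genes, crossed numbers called 4666 of 14217 at 5 h and 9050 of 15377 at 12 h, against 1576 and 7230 in the main fits.

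The CPM scale moved the median of all genes by 0.18 and 0.19 at 5 h and by 0.29 and 0.25 at 12 h for chaetocin and chetomin, and it left 7 and 6 members called at 12 h. NRARP at 12 h was called against vehicle and against each analog under all these settings. 2 libraries per group limit the precision.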
